A study of Mus musculus with 9 samples.

Results

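The tumour necrosis factor (TNF) receptor family on induced regulatory T cells was followed through 7 genes: Tnfrsf4, Tnfrsf9, Tnfrsf18, Tnfrsf1a, Tnfrsf1b, Cd27 and Fas. They were taken by gene symbol from a bulk RNA sequencing table of 14912 genes, and all 7 had a row and enough signal to be tested. There were 9 libraries of CD4+ T cells in 3 groups of 3, all from the mouse strain B6.Cg-Foxp3tm2(EGFP)Tch/J and hemizygous for Foxp3<tm2Tch>, in which eGFP reports Foxp3, the master transcription factor of regulatory T (Treg) cells. The mTO-iTreg libraries came from eGFP+ cells after 5 days of culture beside organoids, self-organising cultures grown from mouse CRC (colorectal cancer) tumours, with IL-2 at 20 U/ml and stimulating antibodies (anti-CD3 and anti-CD28, 1 µg/ml each); no added TGFβ is listed for them. The TGFβ-iTreg libraries came from eGFP+ cells after 5 days with TGFβ at 10 ng/ml, IL-2 at 300 U/ml and the same stimulating antibodies at the same dose. The day 0 libraries came from eGFP- CD4+ T cells before any culture. The iTreg groups therefore differ from day 0 in culture, stimulation and sorting gate together, and from each other in organoids, TGFβ and IL-2 dose together. The labels give no age, nor whether the libraries of a group are of separate mice or separate cultures, and p-values therefore cover only spread among these libraries, which may be technical.

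Receptors of this family bind trimeric ligands of the TNF family with a cysteine-rich outer part. Costimulatory members such as OX40 (Tnfrsf4), CD137 (Tnfrsf9), GITR (Tnfrsf18), CD27 and TNFR2 (Tnfrsf1b) recruit TRAF adaptor proteins and switch on NF-κB, whereas TNFR1 (Tnfrsf1a) and Fas carry a death domain in their inner part and can also start cell death. OX40, GITR, TNFR2 and CD137 are known for their high surface level on activated Treg cells, and several are targets of agonist antibodies in cancer.

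In the gene annotation of GENCODE M21 on the mouse genome build GRCm38, 4 of the 7 genes lie on chromosome 4, with 7 of the 28 family receptors considered. Tnfrsf4 (chr4:156013843-156016612, plus strand) and Tnfrsf18 (chr4:156026164-156028895, plus strand) are neighbours with 9551 bases between them. Tnfrsf9 spans chr4:150914562-150946102 on the plus strand and Tnfrsf1b chr4:145213463-145246870 on the minus strand. Cd27 (chr6:125232622-125237010, minus strand) and Tnfrsf1a (chr6:125349362-125362484, plus strand) share chromosome 6, and Fas lies at chr19:34290666-34327772 on the plus strand. Tnfrsf9 overlaps Camta1, Tnfrsf18 the antisense gene Gm16008 along all 2732 of its own bases, and Cd27 overlaps Vamp1, each on the opposite strand. The handling of strand is not given in the sources used here, so whether reads of these pairs were told apart is not known. Camta1 and Vamp1 have values of their own, at most 288 and 118 normalized counts in a library, and Gm16008 has none.

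Stretches before the starts of Tnfrsf9, Tnfrsf4 and Tnfrsf18 are shown because these genes had the largest differences between groups and share a chromosome. They are RefSeq's, on GRCm38.p6, given on the plus strand, which is the strand of these genes, and without annotated exons. This leaves out the last 81 bases before the second start of Tnfrsf9 and the last 158 before that of Tnfrsf18. Of the Tnfrsf4 window, only the 84 bases next to the start are shown. Capitals mark a match to the STAT motif TTCNNNGAA. All 7 genes matched RefSeq, with 8 windows of 250 bases, since Tnfrsf9 has a pair of starts. The starts of RefSeq are not always those of the GENCODE spans given above. Both Tnfrsf9 windows and the Tnfrsf1a window (chr6:125349473-125349722) lie inside the GENCODE spans of their genes. The Tnfrsf4 window ends at 156013694, short of the GENCODE start at 156013843.
Tnfrsf9, first start, chr4:150919905-150920154: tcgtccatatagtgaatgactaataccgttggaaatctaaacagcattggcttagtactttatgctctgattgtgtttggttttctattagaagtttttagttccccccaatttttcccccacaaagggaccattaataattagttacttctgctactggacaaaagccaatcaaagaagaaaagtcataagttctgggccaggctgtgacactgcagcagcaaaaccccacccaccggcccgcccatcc
Tnfrsf9, second start, chr4:150927749-150927917: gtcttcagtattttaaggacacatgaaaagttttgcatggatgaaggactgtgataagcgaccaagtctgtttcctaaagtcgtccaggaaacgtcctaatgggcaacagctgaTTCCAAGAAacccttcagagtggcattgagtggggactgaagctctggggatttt
Tnfrsf4, chr4:156013611-156013694: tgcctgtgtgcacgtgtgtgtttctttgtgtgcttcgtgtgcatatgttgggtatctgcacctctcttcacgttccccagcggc
Tnfrsf18, chr4:156026072-156026163: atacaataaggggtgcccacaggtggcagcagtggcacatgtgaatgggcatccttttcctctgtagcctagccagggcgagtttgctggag
Closer to the second start of Tnfrsf9, at chr4:150927952-150927981 on the plus strand, stood the match to the NF-κB consensus shown here in capitals, which begins 43 bases before that start. This match and the AP-1 match named next lie among the 81 bases left out above for annotated exons.
Tnfrsf9, second start, NF-κB match: agctGGGGATTTCCCaggaggccctgctca
The same window also held the AP-1 motif TGANTCA, beginning 15 bases before the start, so that the second start of Tnfrsf9 was the only one of the 8 windows with all 3 motifs. The STAT match printed for it begins 136 bases before the start. Elsewhere, the STAT motif began 99 bases before the start of Tnfrsf18 (outside the stretch shown), 181 before that of Tnfrsf1b, 244 before that of Tnfrsf1a and 93 before that of Fas, and the AP-1 motif 211 before that of Fas. No match to the 3 motifs was found in the windows of Tnfrsf4, Cd27 and the first start of Tnfrsf9. Both strands were searched. Of 32851 mouse windows of the same length, 3.90% held the NF-κB consensus, 6.75% the AP-1 motif and 7.02% the STAT motif. These are letter matches and not measured binding, and which start was used was not measured.

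Values are normalized counts, that is, the authors' counts divided by a size factor for each library. A library held between 2078223 and 9944952 counts, and 1 count stood for 0.494 to 2.69 normalized counts. The reporter eGFP stood at 305, 462 and 262 normalized counts in mTO-iTreg libraries and at 588, 674 and 695 in TGFβ-iTreg libraries, against 26.3, 51.1 and 86.5 on day 0, so its order followed the sort labels. T cell markers were present in every library, with 6 of 6 genes found and sums of 18624 to 22638 normalized counts in mTO-iTreg libraries, 15960 to 17262 in TGFβ-iTreg libraries and 25807 to 27639 on day 0. Of markers of antigen-presenting cells, 9 of 13 could be followed, and they summed to 1833 to 2991 in mTO-iTreg libraries and 208 to 482 in TGFβ-iTreg libraries, against 906 to 7710 on day 0, where replicate 3 was highest; H2-Eb1 carried most of the mTO-iTreg sum (2331, 1410.04 and 1817). Itgax was at 0 in all 3 mTO-iTreg libraries, where Fcer1g was at 8.87, 0 and 0 and Tyrobp at 4.09, 1.86 and 0, against 57.9, 61.8 and 229.99 for Fcer1g and 19.3, 48.4 and 86.5 for Tyrobp on day 0. Cd68 overlapped, at 10.9, 6.82 and 8.64 in mTO-iTreg libraries and 12.3, 8.06 and 7.38 on day 0. Itgam stood at 23.2, 0 and 0.664 in mTO-iTreg libraries, against 17.5, 0 and 16.9 on day 0. H2-Ab1 was higher in mTO-iTreg (229, 208 and 313) than in TGFβ-iTreg libraries (88.5, 76.6 and 33.1). Cd74 stood at 194, 150 and 122 in mTO-iTreg libraries and 108, 122 and 78.1 in TGFβ-iTreg libraries. H2-Aa overlapped between the iTreg groups. Epithelial markers, 6 of 12 followed, summed to 34.1 to 115 in mTO-iTreg libraries, 127 to 138 in TGFβ-iTreg libraries and 10.5 to 18.8 on day 0. B cell markers, 5 of 6 followed, summed to 61.1 to 109.8 in mTO-iTreg libraries, 30.6 to 74.6 in TGFβ-iTreg libraries and 10.5 to 57.0 on day 0. Natural killer markers, 3 of 4 followed, summed to 603 to 745, 183 to 369 and 209.7 to 600.3 in the same order of groups. Nkg7 carried most of the mTO-iTreg sum (740.02, 599 and 672), while Klrd1 stood at 4.77, 3.72 and 2.66 in mTO-iTreg libraries, against 444, 199 and 437 on day 0, and Klrb1c was at 0 in all 3 mTO-iTreg libraries. Xist, which is transcribed from an inactive X chromosome, stood at 314, 398 and 401 in mTO-iTreg libraries and 0, 2.71 and 70.6 in TGFβ-iTreg libraries, against 3.51, 0 and 212 on day 0. The label hemizygous, for a gene on the X chromosome, would mean a single X, and Xist at these levels goes against it in the mTO-iTreg libraries and in replicate 3 of the other groups. The labels give no sex, and mTO-iTreg and any difference in sex cannot be told apart. Without replicate 3 of TGFβ-iTreg and of day 0, 6 of the 7 genes were called in mTO-iTreg and 4 in TGFβ-iTreg cells against day 0, and 5 between the iTreg groups. Of all tested genes, 1261 were called in TGFβ-iTreg cells against day 0 in that setting. Among the libraries then left, only those of mTO-iTreg had high Xist, so these counts do not separate group from sex. The labels also code the mTO-iTreg libraries in another form than the other 6, so that group and any processing batch cannot be told apart. The part of these differences in the results was not tested.

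Most of the 7 receptors were higher in the iTreg groups than on day 0, and 6 of them were higher beside organoids than with TGFβ. In mTO-iTreg cells 6 of 7 rose against day 0, where 19.4% of the 10983 tested genes rose; the seventh, Tnfrsf1a, did not pass the test. In TGFβ-iTreg cells 4 of 7 rose against day 0 (Tnfrsf4, Tnfrsf9, Tnfrsf18 and Tnfrsf1b), where 9.78% of tested genes rose. Between the iTreg groups, 6 of 7 were higher in mTO-iTreg cells, where 14.9% of tested genes were. None of the 7 fell in any of the 3 comparisons, in which 14.5%, 8.80% and 11.8% of tested genes fell, in the same order; the count of falls was also 0 at an unadjusted p under 0.05 and by limma-voom. The median log2 change of the 7 was 2.41 in mTO-iTreg cells against day 0, 1.32 in TGFβ-iTreg cells against day 0 and 1.09 between the iTreg groups, beside 0.09, -0.02 and 0.13 over all tested genes. The comparisons with day 0 share the day 0 libraries and are not independent of each other. In these bulk samples, fewer cells that carry a receptor and less of its RNA per cell cannot be told apart.

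**Figure D1:**
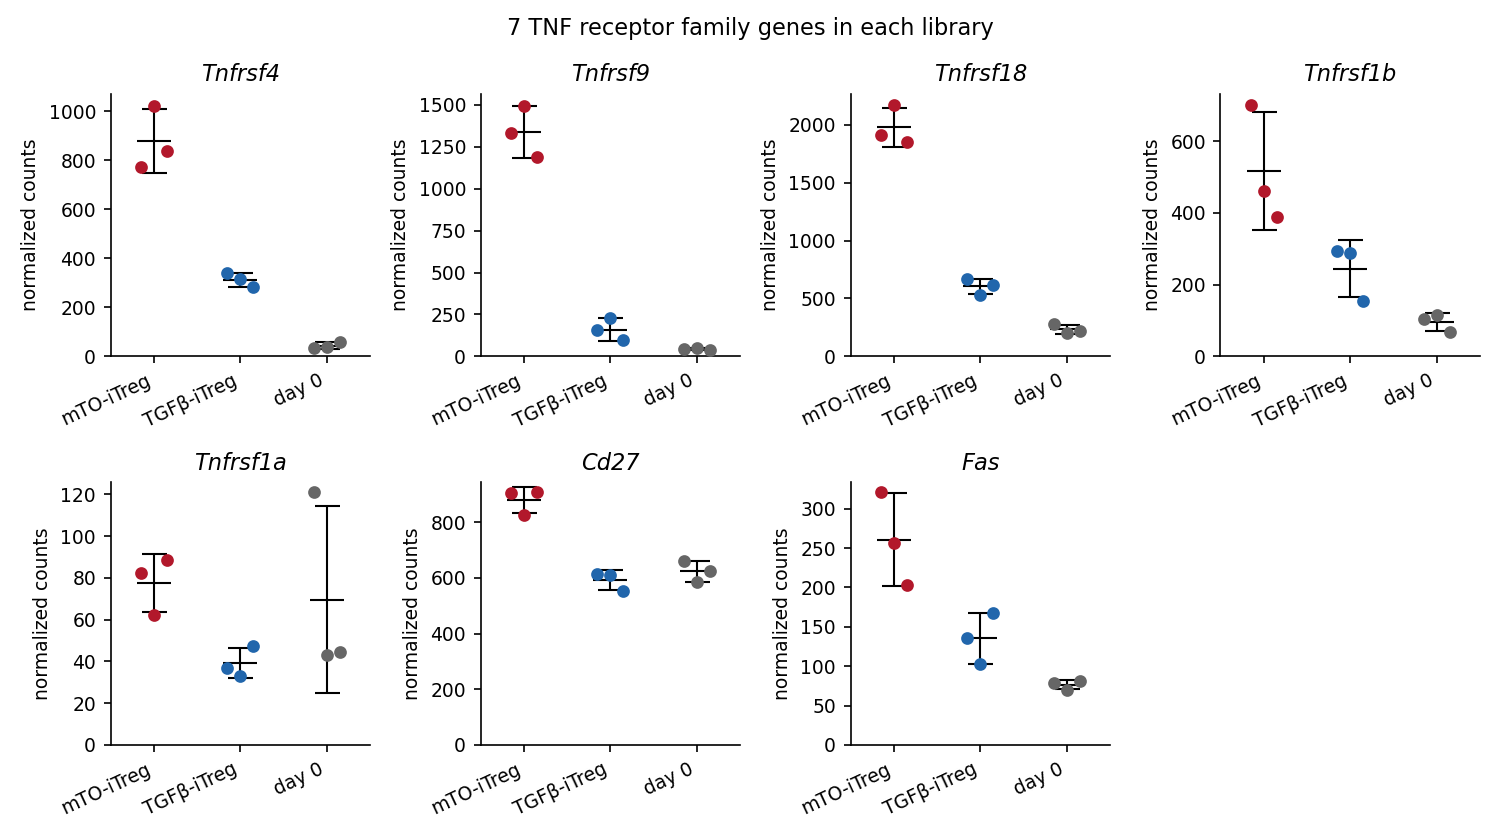
Normalized counts of the 7 receptor genes in every library (points), with the group mean and SD (lines, n = 3 each), for mTO-iTreg, TGFβ-iTreg and day 0 cells; each panel has its own axis. The 3 mTO-iTreg libraries lie above the other 6 for every gene except Tnfrsf1a, where replicate 1 of day 0 is highest at 121.

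Tnfrsf9 encodes CD137, a receptor that appears on T cells after activation and binds the ligand made by Tnfsf9. It stood at 1331, 1494 and 1188 normalized counts in mTO-iTreg libraries and 155, 229 and 95.8 in TGFβ-iTreg libraries, against 43.9, 51.1 and 38.0 on day 0. The 3 groups did not overlap, and the lowest mTO-iTreg library was far above the highest TGFβ-iTreg library. The mean was 1338 ± 153 in mTO-iTreg cells, 159.8 ± 66.5 in TGFβ-iTreg cells and 44.3 ± 6.56 on day 0 (SD, n = 3 each), from 6149, 594 and 80 counts in the 3 groups. This was 30.2-fold higher in mTO-iTreg cells than on day 0 (log2 change 4.89 ± 0.28 SE, limma adjusted p = 5.0e-08), the largest difference among the 7 genes, and 3.61-fold higher in TGFβ-iTreg cells than on day 0 (log2 change 1.75, adjusted p = 0.00075). Tnfrsf9 also separated the iTreg groups most, by 8.37-fold (log2 change 3.14, 95% interval 2.54 to 3.73, adjusted p = 4.8e-06). Among TGFβ-iTreg libraries it varied more than Tnfrsf4 or Tnfrsf18, with an SD of 41.6% of the mean, against 8.97% for Tnfrsf4 and 10.9% for Tnfrsf18.

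Tnfrsf4 encodes OX40, the receptor of the ligand made by Tnfsf4. It stood at 771, 1024 and 838 in mTO-iTreg libraries and 339, 317 and 284 in TGFβ-iTreg libraries, against 35.1, 37.6 and 59.1 on day 0. All 3 groups stood apart, with the TGFβ-iTreg libraries between the others. The difference from day 0 was 20.0-fold in mTO-iTreg cells (log2 change 4.32 ± 0.23 SE, adjusted p = 2.4e-08) and 7.13-fold in TGFβ-iTreg cells (log2 change 2.84, adjusted p = 7.6e-06). Between the iTreg groups it was 2.80-fold (log2 change 1.48, 95% interval 0.99 to 1.96, adjusted p = 0.00034). Of the 7 genes, Tnfrsf4 was the one with the largest log2 change in TGFβ-iTreg cells, while Tnfrsf9 was the one with the largest in mTO-iTreg cells.

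Tnfrsf18, the neighbour of Tnfrsf4, encodes GITR, a receptor that Treg cells carry before activation and carry more of afterwards. It stood at 1911, 2169.96 and 1847 in mTO-iTreg libraries and 664, 534 and 615 in TGFβ-iTreg libraries, against 281, 202 and 216 on day 0. The groups did not overlap, and the libraries within each group lay close together. It was 8.49-fold higher in mTO-iTreg cells than on day 0 (log2 change 3.09 ± 0.16 SE, adjusted p = 2.4e-08), and 2.60-fold higher in TGFβ-iTreg cells than on day 0 (log2 change 1.38, adjusted p = 7.3e-05). In mTO-iTreg cells it was 3.27-fold the level of TGFβ-iTreg cells (log2 change 1.71, 95% interval 1.37 to 2.05, adjusted p = 7.2e-06). Although the genes are neighbours, the log2 change of Tnfrsf4 against day 0 was larger than that of Tnfrsf18 in each iTreg group, and the 95% intervals of these changes did not overlap (3.83 to 4.80 against 2.75 to 3.43 in mTO-iTreg cells, and 2.36 to 3.32 against 1.04 to 1.72 in TGFβ-iTreg cells); the difference itself was not tested.

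Cd27 encodes a receptor that T cells already carry before activation and that binds CD70. It stood at 904, 826 and 909 in mTO-iTreg libraries and 615, 610.4 and 552 in TGFβ-iTreg libraries, against 659.7, 586 and 625 on day 0. The mTO-iTreg libraries were above all others, while the TGFβ-iTreg and day 0 libraries overlapped. The gene was 1.41-fold higher in mTO-iTreg cells than on day 0 (log2 change 0.50, 95% interval 0.22 to 0.78, adjusted p = 0.0095) and 1.48-fold higher than in TGFβ-iTreg cells (log2 change 0.57, 95% interval 0.29 to 0.85, adjusted p = 0.0056). These are the smallest changes that passed the test among the 7 genes. Between TGFβ-iTreg cells and day 0 the log2 change was -0.07 (95% interval -0.35 to 0.21, adjusted p = 0.75), and its sign turned to 0.18 when libraries were scaled to equal totals and to 0.06 when mitochondrial genes and Rn45s were also left out of the totals.

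The receptors of TNF itself differed from each other. Tnfrsf1b encodes TNFR2, which is common on Treg cells, and it stood at 701, 462 and 389 in mTO-iTreg libraries and 293, 289 and 153 in TGFβ-iTreg libraries, against 105, 116 and 67.5 on day 0. The 3 groups were in the same order as for Tnfrsf4, without overlap, but the libraries of the iTreg groups were more spread: the SD was 31.6% of the mean in mTO-iTreg cells and 32.5% in TGFβ-iTreg cells, against 14.9% and 8.97% for Tnfrsf4. The gene was 5.38-fold higher in mTO-iTreg cells than on day 0 (log2 change 2.41 ± 0.30 SE, adjusted p = 5.0e-05), and 2.55-fold higher in TGFβ-iTreg cells than on day 0 (log2 change 1.32, adjusted p = 0.0088). The TGFβ-iTreg difference from day 0 was not called by limma-voom on counts recovered from the table (adjusted p = 0.066). Between the iTreg groups it was 2.11-fold (log2 change 1.09, 95% interval 0.44 to 1.74, adjusted p = 0.017), and this call was lost without replicate 1 of mTO-iTreg (adjusted p = 0.087), without replicate 3 of TGFβ-iTreg (0.081), and without replicate 3 of both day 0 and TGFβ-iTreg, the libraries of those groups with the most Xist (0.055).

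Tnfrsf1a encodes TNFR1, the death-domain receptor that many cell types carry. It stood at 82.5, 62.0 and 88.3 in mTO-iTreg libraries and 36.9, 33.2 and 47.4 in TGFβ-iTreg libraries, against 121, 43.0 and 44.3 on day 0. Replicate 1 of day 0 was the highest library of all, and the other 2 day 0 libraries were among the TGFβ-iTreg libraries. The log2 change was 0.32 in mTO-iTreg cells against day 0 (95% interval -0.60 to 1.23, adjusted p = 0.60), and -0.65 in TGFβ-iTreg cells against day 0 (95% interval -1.57 to 0.26, adjusted p = 0.32). These intervals still allow a change of either sign. Without replicate 1 of day 0, the log2 changes were 0.80 (adjusted p = 0.15) in mTO-iTreg cells and -0.17 (adjusted p = 0.82) in TGFβ-iTreg cells. Between the iTreg groups the libraries did not overlap, and the difference of 1.98-fold did not pass the test (log2 change 0.97, 95% interval 0.05 to 1.88, adjusted p = 0.11).

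Fas encodes the receptor of Fas ligand, the classical inducer of death in activated T cells. It stood at 321, 257 and 203 in mTO-iTreg libraries and 135, 103 and 168 in TGFβ-iTreg libraries, against 78.9, 69.9 and 81.2 on day 0. No libraries overlapped between any of the groups. The SD was 22.7% of the mean in mTO-iTreg cells and 23.96% in TGFβ-iTreg cells, against 7.82% on day 0. Fas was 3.40-fold higher in mTO-iTreg cells than on day 0 (log2 change 1.73 ± 0.26 SE, adjusted p = 0.00020). In TGFβ-iTreg cells the 1.77-fold difference from day 0 had an adjusted p of 0.05001, just above the threshold of 0.05 (log2 change 0.79, 95% interval 0.23 to 1.35), and 6 of 22 other settings put it below, in a range of 0.0137 to 0.217. The 1.92-fold difference between the iTreg groups passed (log2 change 0.94, 95% interval 0.38 to 1.50, adjusted p = 0.016), though not without replicate 1 of mTO-iTreg (0.082) or replicate 2 of TGFβ-iTreg (0.074).

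**Figure D2:**
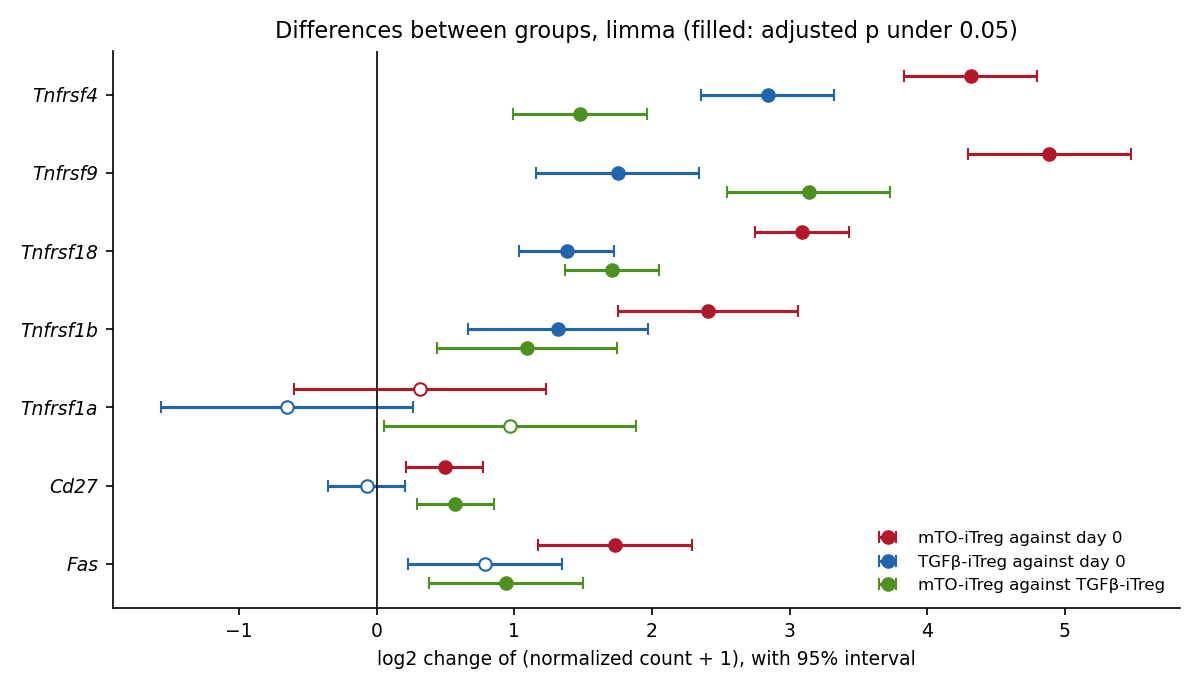
Log2 change of normalized counts plus 1 for the 7 genes (points) with 95% intervals (bars) in the 3 comparisons; filled points passed the threshold of 0.05 on limma's adjusted p. Tnfrsf9 and Tnfrsf4 lie furthest right against day 0 in mTO-iTreg cells, at 4.89 and 4.32, and the intervals of Tnfrsf1a against day 0 cross 0.

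Counted without regard to adjusted p, the libraries did not overlap for 6 of 7 genes in mTO-iTreg cells against day 0, for 5 of 7 in TGFβ-iTreg cells against day 0 and for 7 of 7 between the iTreg groups, all of them higher in the group named first. Over all tested genes, 46.2%, 35.9% and 44.6% had libraries that did not overlap, in either direction, in the same order of comparisons. When libraries were scaled to equal totals instead, the median of all tested genes moved to 0.31 in mTO-iTreg cells and 0.23 in TGFβ-iTreg cells against day 0, and the members called were 6 and 5. The number of all genes that rose also grew in each of these comparisons, in TGFβ-iTreg cells from 1074 to 1793.

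Comparing genes within a library removes its depth and its size factor. Of 28 family receptors considered, 24 were in the table, and the 7 genes held 89.8 ± 0.756% of the counts of those 24 in mTO-iTreg libraries and 75.1 ± 5.90% in TGFβ-iTreg libraries, against 64.0 ± 3.65% on day 0 (SD, n = 3 each). These are shares of sequenced counts, not of protein and not corrected for length. The makeup differed between the groups. Tnfrsf9 held 20.2 ± 1.09% of the receptor counts in mTO-iTreg libraries and 5.76 ± 2.44% in TGFβ-iTreg libraries, against 2.41 ± 0.532% on day 0. Cd27 held its shares in the reverse order, with 13.4 ± 1.54% in mTO-iTreg libraries and 21.3 ± 1.33% in TGFβ-iTreg libraries, against 33.6 ± 0.838% on day 0, although its own normalized count was not lower in mTO-iTreg cells. Tnfrsf4 held 13.3 ± 1.71%, 11.3 ± 1.01% and 2.37 ± 0.691% in the same order of groups, so that its share overlapped between the iTreg groups. Of all counts of a library, the 7 genes together made up 0.117 ± 0.01003% in mTO-iTreg cells and 0.0420 ± 0.00261% in TGFβ-iTreg cells, against 0.0201 ± 0.00194% on day 0.

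The balance between the genes also differed. For each count of Tnfrsf4 there were 1.73, 1.46 and 1.42 counts of Tnfrsf9 in mTO-iTreg libraries and 0.457, 0.722 and 0.338 in TGFβ-iTreg libraries, against 1.25, 1.36 and 0.643 on day 0. This ratio separated the mTO-iTreg libraries from the TGFβ-iTreg libraries without overlap. For each count of Tnfrsf18 there were 0.404, 0.472 and 0.454 counts of Tnfrsf4 in mTO-iTreg libraries and 0.511, 0.593 and 0.461 in TGFβ-iTreg libraries, against 0.125, 0.187 and 0.273 on day 0. Here the mTO-iTreg and TGFβ-iTreg ranges overlapped and both lay above day 0. For each count of Tnfrsf1a there were 8.50, 7.44 and 4.40 counts of Tnfrsf1b in mTO-iTreg libraries and 7.93, 8.69 and 3.23 in TGFβ-iTreg libraries, against 0.870, 2.69 and 1.52 on day 0. The ranges of the iTreg groups overlapped, and every iTreg library was above every day 0 library. Some ratios rest on few counts. Tnfrsf1a had 15 counts in replicate 1 of TGFβ-iTreg and 16 in replicate 2 of day 0. Tnfrsf4 had 20, 14 and 56 counts on day 0.

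**Figure D3:**
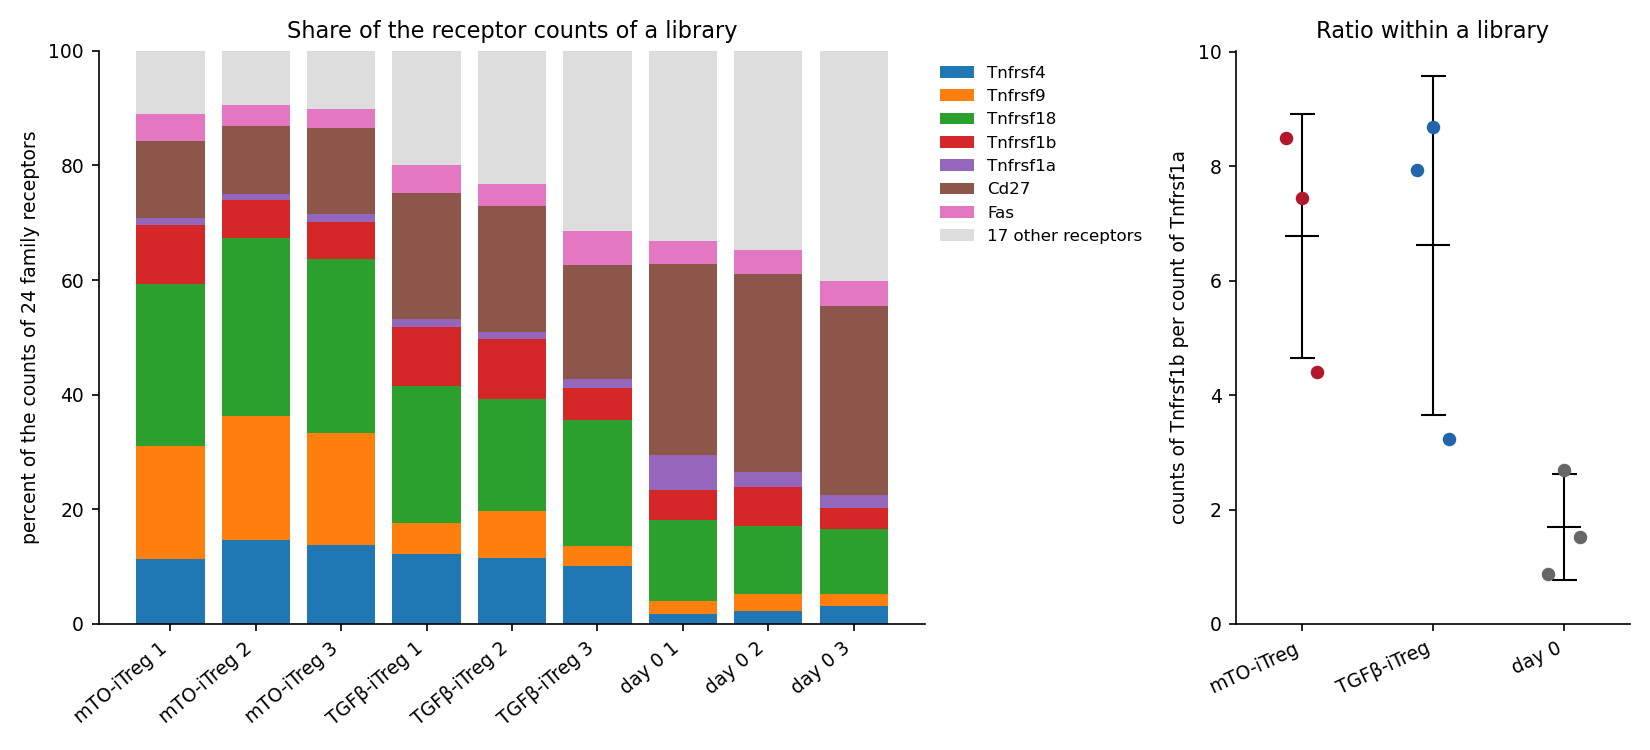
Left, share in percent of the counts of 24 TNF receptor family genes held by each of the 7 genes and by the other 17 together, for each library; right, counts of Tnfrsf1b per count of Tnfrsf1a in each library (points) with mean and SD (lines, n = 3 each). The share of Tnfrsf9 is widest in the mTO-iTreg libraries and that of Cd27 in the day 0 libraries, and the ratio lies between 3.23 and 8.69 in all 6 iTreg libraries, against 0.870 to 2.69 on day 0.

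The gene with the profile nearest to each receptor was found among 9559 genes, by the root mean square difference of log2 values over the 9 libraries after each gene's own mean was taken off; the order rests on 3 group means for the most part. Tnfrsf18 was nearest to Ccr9, a chemokine receptor, at a difference of 0.16 (mean normalized counts of 972, 329 and 119 in mTO-iTreg, TGFβ-iTreg and day 0 cells), and then to Bcl3, an atypical member of the inhibitor of NF-κB family, at 0.26. Tnfrsf4 was nearest to Irf8, an interferon regulatory factor, at 0.30 (1665, 837 and 100.0), and then to Cish, a target gene of IL-2 and STAT signals, at 0.38. Tnfrsf9 was nearest to Mzb1 at 0.40 (27.5, 1.83 and 0) and Repin1 at 0.50 (50.1, 5.22 and 0). Both are low genes with a mean of 0 on day 0, where the 1 added before log2 sets the value. The 2 nearest to Tnfrsf1b were Mapre3 at 0.32 and Siva1 at 0.35, the second of which encodes a protein that binds CD27. Fas was nearest to Ulk1 at 0.21 and Cbx5 at 0.22, and Tnfrsf1a to Zfp606 and B4galt3, each at 0.23. Cd27 was nearest to the abundant translation genes Rpl41 and Pabpc1, each at 0.09, which is the profile of a gene that moved little. Among the 7 genes, the closest pairs were Cd27 and Tnfrsf1a at 0.47, Tnfrsf18 and Tnfrsf1b at 0.51, and Tnfrsf1b and Fas at 0.55, while the neighbours on the chromosome, Tnfrsf4 and Tnfrsf18, were at 0.70. This difference is small between any genes that moved little, so it does not rank likeness across pairs. From Cd27, Tnfrsf1a was only number 3128 of 9559 genes, and from Tnfrsf1a, Cd27 was number 323. From Tnfrsf4, Tnfrsf18 was number 49, and from Tnfrsf18, Tnfrsf4 was number 273.

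Of the ligands of the 7 receptors, Tnf, Lta, Tnfsf9 and Fasl could be tested, and Fasl was the one that passed in any comparison. Tnf averaged 96.6 ± 74.4 in mTO-iTreg cells, 64.5 ± 32.4 in TGFβ-iTreg cells and 69.2 ± 27.9 on day 0 (SD, n = 3 each), with adjusted p of 0.70 for mTO-iTreg and 0.87 for TGFβ-iTreg against day 0, and 0.56 between the iTreg groups. Lta, whose product also binds the TNF receptors, averaged 220.4 ± 118 in mTO-iTreg cells and 221 ± 55.2 in TGFβ-iTreg cells, against 94.8 ± 12.2 on day 0, with adjusted p of 0.063 and 0.052 against day 0. Fasl, the ligand of Fas, stood at 56.6, 78.8 and 99.0 in mTO-iTreg libraries and 0, 11.5 and 5.93 in TGFβ-iTreg libraries, against 47.4, 18.8 and 16.9 on day 0. It was 13.4-fold higher in mTO-iTreg than in TGFβ-iTreg cells (log2 change 4.12, adjusted p = 0.0023), a call that all 22 other settings kept. Against day 0 its log2 change was 1.58 in mTO-iTreg cells (adjusted p = 0.15) and -2.54 in TGFβ-iTreg cells (adjusted p = 0.044), and the TGFβ-iTreg call was lost in 17 of 22 other settings, among them without any single library other than replicate 2 of TGFβ-iTreg (0.057 to 0.16). Tnfsf9, the ligand of CD137, averaged 4.62, 10.2 and 5.11 in the 3 groups and passed no test. Tnfsf4, the ligand of OX40, was too low to be tested, with 14.3, 2.48 and 33.2 in mTO-iTreg libraries and 0, 0 and 1.48 in TGFβ-iTreg libraries, against 0, 2.69 and 1.05 on day 0. Cd70 was also too low, at 2.05, 6.82 and 0 in mTO-iTreg libraries and 0, 0 and 2.96 in TGFβ-iTreg libraries, against 0, 0 and 1.05 on day 0. Tnfsf18, the ligand of GITR, was not analysed here.

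Of 18 ligands of the whole family, 10 could be tested. In mTO-iTreg cells 1 rose and 2 fell against day 0 (33.9% of all tested genes were called there in either direction), in TGFβ-iTreg cells 1 rose and 2 fell against day 0 (18.6% of all), and between the iTreg groups 2 were higher and 1 lower in mTO-iTreg cells (26.6% of all). Tnfsf8, the ligand of CD30, stood at 262, 286 and 173 in mTO-iTreg libraries and 36.9, 27.1 and 27.2 in TGFβ-iTreg libraries, against 15.8, 40.3 and 65.4 on day 0. It was 5.94-fold higher in mTO-iTreg cells than on day 0 (adjusted p = 0.00048) and 7.91-fold higher than in TGFβ-iTreg cells (adjusted p = 0.00042). Ltb, which encodes lymphotoxin beta, fell to a mean of 616 ± 27.9 in mTO-iTreg cells, against 1601 ± 125 in TGFβ-iTreg cells and 1685 ± 289.8 on day 0 (log2 change -1.44 against day 0, adjusted p = 6.5e-06, and -1.37 against TGFβ-iTreg, adjusted p = 1.6e-05). Cd40lg, which helper T cells use to activate B cells, averaged 12.8 ± 9.02 in mTO-iTreg cells and 18.3 ± 7.60 in TGFβ-iTreg cells, against 92.7 ± 9.37 on day 0. It fell in each iTreg group against day 0 (log2 change -2.98, adjusted p = 0.0013 in mTO-iTreg cells, and -2.36, adjusted p = 0.012 in TGFβ-iTreg cells). The TGFβ-iTreg call was lost without replicate 2 of TGFβ-iTreg (0.053) and without replicate 3 of both day 0 and TGFβ-iTreg (0.059). It was also lost without replicate 2 of day 0 and replicate 1 of TGFβ-iTreg together (0.054). Tnfsf11, which encodes RANKL, was 3.90-fold higher in TGFβ-iTreg cells than on day 0 (38.2 ± 14.1 against 9.79 ± 8.56, adjusted p = 0.037), a call lost in 10 of 22 other settings, among them without any single TGFβ-iTreg library (0.066 to 0.13) and without replicate 2 (0.11) or 3 (0.070) of day 0.

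Of the other 21 receptors of the family, 11 could be tested. By limma, 2 rose and 0 fell in mTO-iTreg cells against day 0 (2 fell at an unadjusted p under 0.05, and 0 by limma-voom), 2 rose and 1 fell in TGFβ-iTreg cells against day 0, and between the iTreg groups 2 were higher and 3 lower in mTO-iTreg cells. These are 18.2%, 27.3% and 45.5% of the 11, beside 33.9%, 18.6% and 26.6% of all tested genes. Their median log2 change was -0.36 in mTO-iTreg cells against day 0, 0.47 in TGFβ-iTreg cells against day 0 and -0.48 between the iTreg groups. Relt, a receptor of white blood cells, averaged 217 ± 32.4 in mTO-iTreg cells and 58.7 ± 11.99 in TGFβ-iTreg cells, against 183 ± 43.2 on day 0, and was lower in TGFβ-iTreg cells than on day 0 (log2 change -1.62, adjusted p = 0.0010) and 3.69-fold higher in mTO-iTreg than in TGFβ-iTreg cells (adjusted p = 0.00020). Tnfrsf13c, the receptor of the B cell survival factor BAFF, averaged 12.04 ± 4.20 in mTO-iTreg cells and 34.1 ± 5.11 in TGFβ-iTreg cells, against 1.41 ± 2.44 on day 0, which rests on 4 counts; it rose in TGFβ-iTreg cells (adjusted p = 0.0018) and in mTO-iTreg cells (adjusted p = 0.012, and 0.076 by limma-voom). Cd40, known from antigen-presenting cells, stood at 15.7, 5.58 and 3.32 in mTO-iTreg libraries and 93.5, 63.1 and 147 in TGFβ-iTreg libraries, against 5.26, 0 and 36.9 on day 0. It was higher in TGFβ-iTreg cells than on day 0 (log2 change 3.96, adjusted p = 0.017, lost by limma-voom, 0.052, and without replicate 1 or 3 of TGFβ-iTreg, 0.052 and 0.071) and lower in mTO-iTreg than in TGFβ-iTreg cells (log2 change -3.63, adjusted p = 0.020, lost without replicate 2 or 3 of mTO-iTreg, 0.056 and 0.076, and without replicate 1 or 3 of TGFβ-iTreg, 0.054 and 0.075). Tnfrsf10b, the mouse receptor of the death ligand TRAIL, averaged 122 ± 28.8 in mTO-iTreg cells and 23.8 ± 11.9 in TGFβ-iTreg cells, against 34.1 ± 26.6 on day 0. It was 3.57-fold higher in mTO-iTreg cells than on day 0 (adjusted p = 0.020, lost without replicate 3 of mTO-iTreg, 0.077) and 5.12-fold higher than in TGFβ-iTreg cells (adjusted p = 0.021, lost without replicate 2 or 3 of mTO-iTreg, 0.052 and 0.079, and without replicate 1 or 3 of TGFβ-iTreg, 0.073 and 0.059). Tnfrsf26 averaged 129 ± 50.3 in mTO-iTreg cells, against 303 ± 114 in TGFβ-iTreg cells (log2 change -1.23, adjusted p = 0.017, lost without replicate 2 of mTO-iTreg, 0.072, or replicate 3 of TGFβ-iTreg, 0.085).

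Of 34 adaptor and signalling genes below the receptors, 32 could be tested. By limma, 6 rose and 5 fell in mTO-iTreg cells against day 0, 3 rose and 0 fell in TGFβ-iTreg cells against day 0 (5 fell at an unadjusted p under 0.05, and 1 by limma-voom), and between the iTreg groups 3 were higher and 5 lower in mTO-iTreg cells, with medians of 0.20, -0.04 and 0.09. These are 34.4%, 9.38% and 25% of the tested adaptors, beside 33.9%, 18.6% and 26.6% of all tested genes. Traf1, an adaptor of TNFR2, OX40 and CD137, averaged 482 ± 40.1 in mTO-iTreg cells and 364 ± 64.7 in TGFβ-iTreg cells, against 167 ± 26.3 on day 0. It was 2.89-fold higher in mTO-iTreg cells (adjusted p = 4.8e-05) and 2.18-fold higher in TGFβ-iTreg cells (adjusted p = 0.0014) than on day 0. Siva1, whose product binds the inner part of CD27, averaged 169 ± 28.0 in mTO-iTreg cells and 111 ± 42.1 in TGFβ-iTreg cells, against 34.7 ± 10.6 on day 0, and was 4.88-fold higher in mTO-iTreg cells (adjusted p = 0.00030) and 3.19-fold higher in TGFβ-iTreg cells (adjusted p = 0.0074, and 0.082 by limma-voom). Tnfaip3, which encodes A20, an inhibitor of NF-κB signalling, averaged 365 ± 35.4 in mTO-iTreg cells, against 134 ± 11.4 in TGFβ-iTreg cells and 136 ± 48.4 on day 0. It was higher in mTO-iTreg cells, 2.68-fold against day 0 (adjusted p = 0.00071) and 2.72-fold against TGFβ-iTreg cells (adjusted p = 0.0013), while its log2 change in TGFβ-iTreg cells against day 0 was 0.05 (95% interval -0.52 to 0.61). Rnf31, a subunit of the linear ubiquitin ligase, averaged 217 ± 24.2 in mTO-iTreg cells, against 124 ± 27.6 in TGFβ-iTreg cells and 112 ± 9.80 on day 0. It was 1.93-fold higher in mTO-iTreg cells than on day 0 (adjusted p = 0.0080) and 1.75-fold higher than in TGFβ-iTreg cells (adjusted p = 0.021, lost without replicate 2 or 3 of mTO-iTreg, 0.071 and 0.057, and without replicate 2 of TGFβ-iTreg, 0.091).

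Traf6, an adaptor shared with interleukin receptors, was 2.53-fold higher in mTO-iTreg cells than on day 0 (279.6 ± 48.4 against 110.5 ± 56.1, adjusted p = 0.0061). Traf4 was 3.06-fold higher in TGFβ-iTreg cells than on day 0 (131 ± 34.9 against 42.7 ± 14.3, adjusted p = 0.0058, and 0.087 without replicate 3 of both groups). It was lower in mTO-iTreg than in TGFβ-iTreg cells, at 62.6 ± 9.30 against 131 ± 34.9 (adjusted p = 0.042), a call lost in 8 of 22 other settings, among them leaving out any single mTO-iTreg library and leaving out replicate 2 or 3 of TGFβ-iTreg (0.059 to 0.17). Chuk, the kinase IKKα of the NF-κB pathway, averaged 90.5 ± 33.1 in mTO-iTreg cells, against 169.8 ± 21.6 in TGFβ-iTreg cells and 193 ± 56.6 on day 0. It fell in mTO-iTreg cells against day 0 (log2 change -1.11, adjusted p = 0.013, lost without replicate 1 of mTO-iTreg, 0.058, or replicate 2 of day 0, 0.059). Against TGFβ-iTreg cells its log2 change was -0.96 (adjusted p = 0.034), lost in 7 of 22 other settings, among them without replicate 1 (0.13) or 2 (0.062) of mTO-iTreg and without any single TGFβ-iTreg library (0.052 to 0.11).

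**Figure D4:**
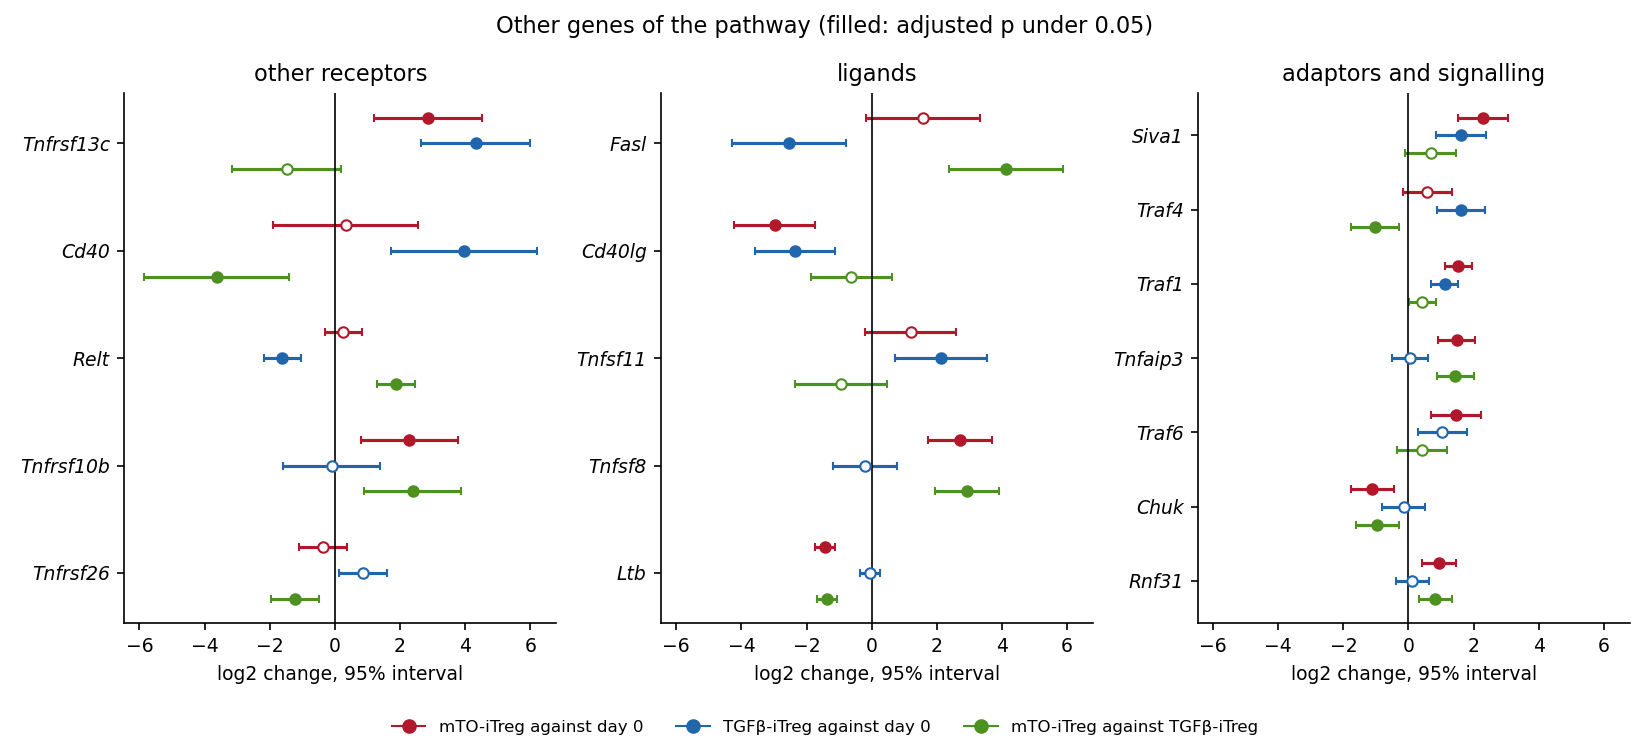
Log2 change (points) with 95% intervals (bars) of named receptors outside the 7, of ligands and of adaptors in the 3 comparisons; filled points passed the threshold of 0.05 on limma's adjusted p. Changes run in either direction, from -3.63 for Cd40 between the iTreg groups to 4.33 for Tnfrsf13c in TGFβ-iTreg cells against day 0.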

How the data were processed

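The deposited table holds normalized counts, 1 value per gene and library. Per the submitters' processing notes, the authors aligned reads with BWA to mm10 and normalized counts with DESeq2; versions and strand handling were not given in the sources used. Per the labels' protocols, the method was a modified CEL-Seq, which reads the end of a transcript next to its poly(A) tail. Dividing a library by the value of its smallest step gave whole numbers within 0.1 for 100.0% of values, and their sums are the depths given.

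The 10983 genes with at least 5 normalized counts in at least 3 of 9 libraries were tested with limma 3.58.1 in R 4.3.3, on log2 of the normalized count plus 1, with 3 group means, a mean-variance trend and 6 residual degrees of freedom. Adjusted p-values are Benjamini-Hochberg over all tested genes, with a threshold of 0.05. Fold changes are ratios of group means; log2 changes are limma's, from means of log2 values after 1 was added, so they can differ from the ratio, most for low or uneven genes. Files were read with Python 3.11.15 and pandas 2.3.3, and the fit was tested on simulated data.

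The 7 genes and the lists of ligands, other receptors, adaptors and markers were chosen with earlier results of these data known. Named pathway genes are, per comparison, up to 4 called genes of each list by size of change, with a group mean of at least 20 on the higher side; the ligands of the 7 genes are given whatever their result. Alternatives changed the pseudocount, filter, scaling, groups fitted and libraries. A planned test with edgeR was not run, and limma-voom on recovered counts took its place. Like the removal of libraries in pairs, limma-voom was chosen after seeing the data. Libraries with the same replicate number had correlations of -0.0505 to 0.0604 around the group means. The labels do not say whether a number marks a shared mouse or day, and these correlations do not settle it. In the main fit, numbers were not used as pairs.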

Additional observations from a re-analysis of the deposited data

How the results depend on the processing

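Over 22 alternatives, 3 of the 21 comparisons of the 7 genes lost a call under any; of 462 values 448 kept direction and side of the threshold, 6 lost the call, 6 gained it (Fas in TGFβ-iTreg cells against day 0) and 2 turned sign (Cd27 in TGFβ-iTreg cells against day 0, 0.18 with equal totals and 0.056 also without mitochondrial genes and Rn45s). The causes were not tested. For the other named genes, 73 of 682 values lost the call. The count of the 7 genes called was 6 in mTO-iTreg cells against day 0 throughout, 3 (limma-voom) to 5 in TGFβ-iTreg cells against day 0, and 4 to 6 between the iTreg groups, where 4 is the count without replicate 1 of mTO-iTreg. The number of all genes called in TGFβ-iTreg cells against day 0 was 2040, and fell to 1142 without day 0 replicate 2 and TGFβ-iTreg replicate 1, the shallowest libraries, and to 1261 without replicate 3 of both groups. Leaving out 1 library at a time gave 1392 to 2002 genes there, 3034 to 3751 in mTO-iTreg cells against day 0 and 2211 to 3154 between the iTreg groups. With equal totals, 1793 rose and 582 fell in TGFβ-iTreg cells (1074 and 966 with the deposited scaling; 1375 and 719 also without mitochondrial genes and Rn45s), and 2739 rose and 1141 fell in mTO-iTreg cells (2126 and 1597). With the replicate number as a block, 3670 genes (6 of the 7) were called in mTO-iTreg and 1938 (4 of the 7) in TGFβ-iTreg cells against day 0. Between the iTreg groups 2838 (6 of the 7) were called. The labels do not say whether the numbers pair the samples. A single count weighs up to 2.69 normalized counts, which limits Tnfsf4, Cd70, Tnfsf9 and the day 0 values of Tnfrsf13c.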

Other observations

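Eda2r, a receptor of ectodysplasin outside the 7 genes and too low to be tested, stood at 53.2, 0 and 21.3 normalized counts in mTO-iTreg libraries and 0, 0 and 0.494 in TGFβ-iTreg libraries, against 0, 0 and 1.05 on day 0; it was chosen after its values were seen. Foxp3 itself stood at 69.6, 37.2 and 81.0 in mTO-iTreg libraries and 19.7, 14.9 and 14.8 in TGFβ-iTreg libraries, against 8.77, 0 and 2.11 on day 0, so the order of the iTreg groups was the opposite of that of eGFP. For neither gene did the difference between the iTreg groups pass the test (limma adjusted p = 0.10 for Foxp3 and 0.053 for eGFP). Within day 0, replicate 3 had the most Xist and the most antigen-presenting markers, and among the 7 genes it was the highest of the 3 libraries for Tnfrsf4 (59.1) and Fas (81.2), the lowest for Tnfrsf9 (38.0) and Tnfrsf1b (67.5), and between the others for Tnfrsf18, Tnfrsf1a and Cd27.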
